A study of Mus musculus with 3 samples.

Results

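The sarcomere proteins are the products of 47 listed mouse genes that build the contractile unit of striated muscle, together with a few of its assembly factors and its energy and oxygen proteins. The genes were listed by name and grouped by where the protein sits, namely the thick filament, the thin filament, titin and the M-band, and the Z-disc. All 47 were found among the 22706 genes of the files, and 28 of them reached 1 FPKM (fragments per kilobase of RNA, relative to all fragments mapped in the library) in at least 1 library. The other 19 stayed below 1 FPKM in every library. The RNA came from C2C12, a mouse myoblast line that can be turned towards muscle fibres or, with bone morphogenetic protein, towards bone-forming cells.

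There were 3 libraries of polyadenylated RNA, 1 for each group. The library labelled shKSRP came from cells carrying a short hairpin RNA against KSRP, an RNA-binding protein that promotes mRNA decay, grown in growth medium with 20% fetal bovine serum. The BMP2 library, titled DM+BMP2, was of mock-transfected cells, and the protocol names differentiation medium with 2% horse serum and BMP2 (bone morphogenetic protein 2) at 100 to 300 ng/ml. The mock library was of mock-transfected cells in growth medium. The length of BMP2 treatment, and whether the hairpin cells were a pool or a clone, could not be settled from the labels. The BMP2 library differs from mock in medium as well as in BMP2, and these cannot be told apart. The mRNA of Khsrp, the gene of KSRP, was at 28.4 ± 0.64 FPKM in the library labelled shKSRP, 27.1 ± 0.666 FPKM in the BMP2 library and 31.4 ± 0.852 FPKM in mock. This mRNA therefore hardly separated the libraries, and the hairpin library is named by its label throughout.

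In a sarcomere, thick filaments of myosin pull on thin filaments of actin. The troponin complex on the thin filament has a calcium-binding subunit (C), an inhibitory subunit (I) and a tropomyosin-binding subunit (T), and lets calcium switch contraction on. Titin spans from the Z-disc, where thin filaments are anchored, to the M-band, which ties thick filaments together in the middle. Most of these proteins come from small gene families with fast, slow, cardiac and embryonic members, and dividing myoblasts are known to make little of most of them.

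From the deposited 95% intervals, each library was estimated to hold between 60.39 M and 68.46 M fragments (M, mega). Each ± below is the half-width of that interval for a gene's FPKM. It covers counting and assignment error only, since there is 1 library per group and no replicate spread, so no p-value is given. Log2 ratios are of FPKM + 1, a scale that shrinks the differences of genes at low FPKM. Genes past 2-fold on this scale were called, which is a rule of size and no test. The rule was applied to 11457 genes at 1 FPKM or more in at least 1 library. In bulk RNA, fewer cells of a type and less RNA per cell cannot be told apart.

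Set against mock, the library labelled shKSRP had 4 of the 28 genes past 2-fold higher (Tnnt1, Lmod2, Myom2 and Actn3) and 5 past 2-fold lower (Myh3, Tnnc1, Tnnt2, Tnnt3 and Nebl). These are 14.29% and 17.86% of the 28, beside 10.9% and 12.9% of all genes compared (23.9% in either direction), and the median log2 ratio was −0.15 for the 28 and −0.02 for all genes. The sarcomere genes as a group were thus close to the background, with single members far to either side. In the BMP2 library against mock, 8 were past 2-fold higher (Myl1, Mylpf, Mybph, Acta1, Tnnc2, Tnni1, Ldb3 and Mb) and 3 were past 2-fold lower (Tnnt2, Tnnt3 and Nebl). These are 28.57% and 10.71% of the 28, beside 9.18% and 9.03% of all genes (18.2% in either direction), with a median of 0.76 for the 28 and 0.03 for all genes, and 22 of the 28 had a ratio above 0. Both comparisons use the same mock library. Of these calls, that of Tnnt3 in both comparisons and that of Tnnc2 in the BMP2 comparison rest on a value listed at 0. The FPKM limit also fixed the direction of some calls. Lmod2 reached 1 FPKM in the library labelled shKSRP alone, Tnnc2 in the BMP2 library alone and Tnnt3 in mock alone.

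In the library labelled shKSRP against the BMP2 library, 2 genes were past 2-fold higher (Tnnt1 and Myom2) and 13 were past 2-fold lower. These are 7.14% and 46.43% of the 28, beside 6.03% and 8.61% of all genes (14.6% in either direction), and the median was −0.81 for the 28 and −0.02 for all genes. The 13 were Myh3, Myl1, Mylpf, Mybph, Actc1, Tnnc1, Tnnc2, Tnni1, Tnnt2, Nebl, Tcap, Csrp3 and Mb, so members of the thick filament, the thin filament and the Z-disc were all among them. Tnnc2 and Tcap reached 1 FPKM in the BMP2 library alone, so the limit that chose the 28 fixed their direction here. The call of Tnnc2 rests on a 0, and with 5 FPKM added in place of 1 the Z-disc genes Tcap (−0.45) and Csrp3 (−0.39) were no longer called, and 5 lower calls were left in all.

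**Figure D1:**
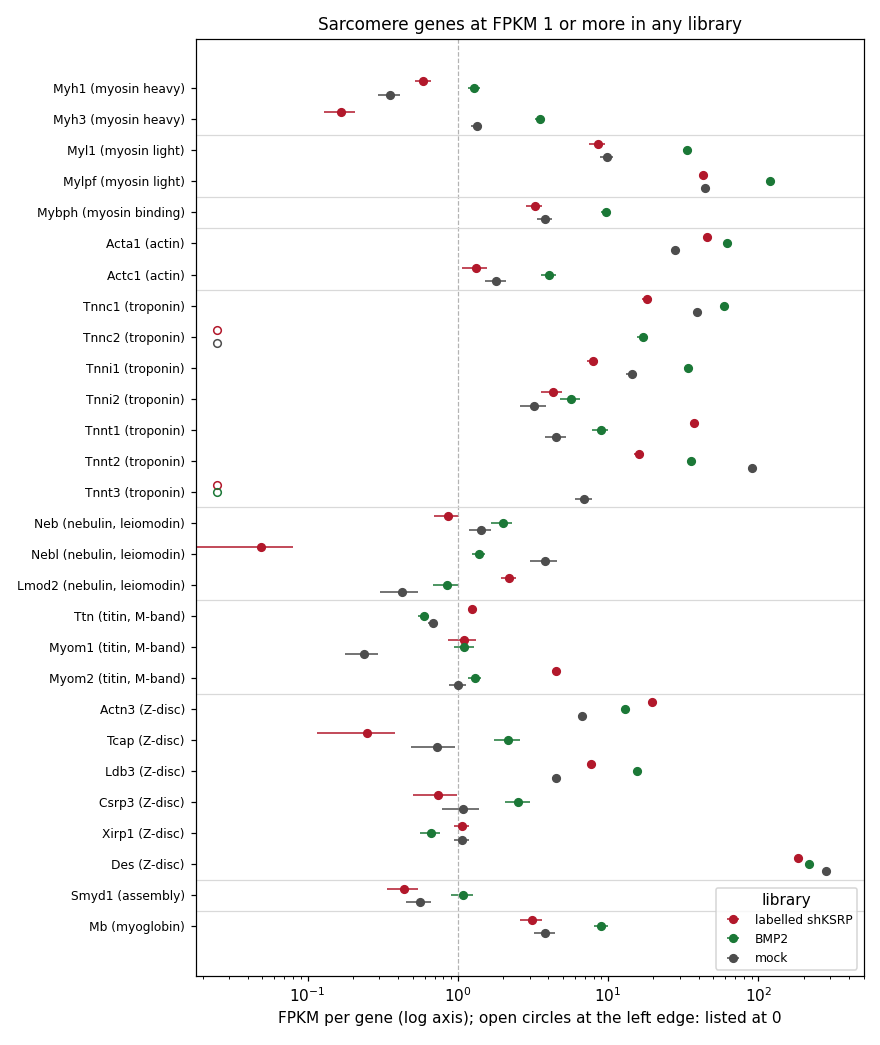
FPKM on a log axis of the 28 sarcomere genes at 1 FPKM or more in at least 1 library, grouped by role, with the library labelled shKSRP in red, the BMP2 library in green and mock in grey. Horizontal bars are half-widths of the deposited 95% intervals, open circles at the left edge are values listed at 0, and the BMP2 point is the rightmost of the 3 for 18 genes.

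Of the 28 genes, 18 (64.29%) were highest in the BMP2 library, against 30.3% of all genes compared. A further 5 (17.86%, against 33.16% of all genes) were highest in the library labelled shKSRP, namely Tnnt1, Lmod2, Ttn, Myom2 and Actn3. The remaining 5 (17.86%, against 36.55% of all genes) were highest in mock, namely Tnnt2, Tnnt3, Nebl, Xirp1 and Des. The FPKM limit that chose the 28 fixed some of these places. Myh1, Tnnc2, Tcap and Smyd1 reached it in the BMP2 library alone, which made that library their highest. The same held for Lmod2 and Ttn in the library labelled shKSRP, and for Tnnt3 in mock. All genes compared met the same limit. With no filter on low values, the median log2 ratio of BMP2 against mock was 0.30 for the 47 genes, beside 0.76 for the 28. The median of all genes was then 0.00. Summed over all 47 genes but desmin, FPKM came to 230.2 in the library labelled shKSRP, 449 in the BMP2 library and 277 in mock. With desmin, the most abundant of the genes, it came to 415, 667 and 557 FPKM in the same order of libraries.

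**Figure D2:**
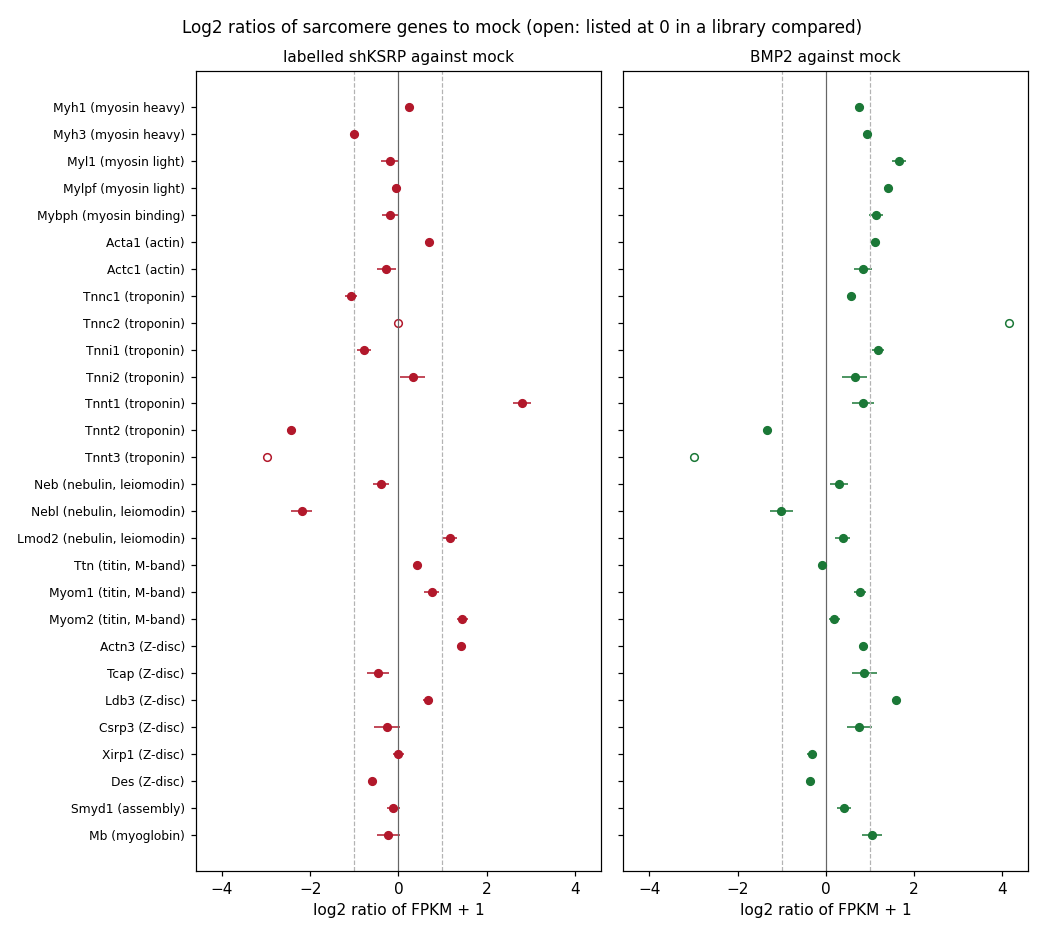
Log2 ratios of FPKM + 1 for the 28 sarcomere genes, in the library labelled shKSRP against mock (left) and in the BMP2 library against mock (right). Bars are half-widths from the deposited intervals, dashed lines mark 2-fold, open circles are genes listed at 0 in a compared library, and 22 of the 28 points on the right lie above 0.

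The thick filament is built from myosin heavy chains, which hold the motor, and light chains, which stabilise its lever arm. Of 7 heavy chain genes, Myh3 and Myh1 reached 1 FPKM. Myh3, the embryonic heavy chain and the first to appear in forming muscle (chr11:66891802-66915793 in mm9), was at 0.168 ± 0.0398 FPKM in the library labelled shKSRP, 3.49 ± 0.226 FPKM in the BMP2 library and 1.34 ± 0.118 FPKM in mock. It was lowest in the library labelled shKSRP and highest with BMP2, and the 3 intervals did not overlap. The log2 ratio to mock was −1.003 in the library labelled shKSRP, at the limit for a call, and 0.94 in the BMP2 library, just short of it. The FPKM ratio itself was 0.125 for the library labelled shKSRP against mock and 2.61 for BMP2 against mock. Myh3 shares its Cufflinks locus with Myh13, and in the library labelled shKSRP all of its FPKM lay on an assembled transcript of 6009 nt, beside 5992 nt for the RefSeq transcript. With 5 FPKM added in place of 1, or with each library scaled to the median of all genes, the ratio to mock in the library labelled shKSRP was −0.29 and −0.99, short of a call.

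Myh1, an adult fast heavy chain, was at 0.59 ± 0.0748 FPKM in the library labelled shKSRP, 1.29 ± 0.117 FPKM in the BMP2 library and 0.353 ± 0.0608 FPKM in mock. The order was BMP2 above shKSRP above mock with intervals apart, but the ratios of 0.23 and 0.76 to mock for shKSRP and BMP2 were under 2-fold, and its reads share a locus with Myh2 and Myh4. The slow and cardiac heavy chain Myh7, which is not among the 28, was at 0.0263 ± 0.0169, 0.789 ± 0.106 and 0.358 ± 0.0611 FPKM in the library labelled shKSRP, the BMP2 library and mock. It thus kept the same order as Myh3. Myh7 shares its locus with Myh6, and in the BMP2 library 0.242 FPKM of its value was on an assembled transcript that spans both genes. The other heavy chains (Myh2, Myh4, Myh6 and Myh8) were at or below 0.152 FPKM in every library, so heavy chain mRNA of all kinds summed to 0.831 FPKM in the library labelled shKSRP, 5.78 FPKM in the BMP2 library and 2.14 FPKM in mock.

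The light chain mRNAs were far more abundant per length than the heavy chain mRNAs, with sums of 51.3, 153 and 54.0 FPKM in the library labelled shKSRP, the BMP2 library and mock. Mylpf, the fast regulatory light chain, was at 42.8 ± 2.01 FPKM in the library labelled shKSRP, 119 ± 4.84 FPKM in the BMP2 library and 44.2 ± 2.14 FPKM in mock. The first and the last overlapped, and the BMP2 value stood apart from both, with a log2 ratio to mock of 1.41. In the BMP2 library an assembled transcript of 536 nt, which begins upstream of the RefSeq start, carries 85.2 FPKM and the RefSeq transcript 34.0 FPKM. With the RefSeq transcript alone the log2 ratio of BMP2 to mock turned to −0.37. In estimated fragments, Mylpf had 2213 in the library labelled shKSRP, 4310 in the BMP2 library and 2070 in mock. These are each transcript's FPKM times its length and the estimated size of the library. They rest on the same transcript lengths and are no separate measure.

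Myl1, the fast essential light chain, was at 8.52 ± 1.01 FPKM in the library labelled shKSRP, 33.3 ± 1.88 FPKM in the BMP2 library and 9.81 ± 0.996 FPKM in mock, and was past 2-fold higher with BMP2 under every alternative tried (log2 ratio 1.66, range 1.37 to 2.00). The gene has a pair of start sites. The upstream one gives the longer light chain 1f, and the internal one gives light chain 3f. RefSeq and assembled transcripts from the internal start held all FPKM in the library labelled shKSRP, while the upstream transcript (chr1:66970870-66991630) was listed at 0 in the library labelled shKSRP, at 3.67 FPKM in the BMP2 library and at 0.813 FPKM in mock. The internal form was therefore the main one in all 3 libraries, with 29.6 FPKM in the BMP2 library and 8.99 FPKM in mock. Mybph, a myosin-binding protein related to the C-proteins, was at 3.24 ± 0.392, 9.62 ± 0.702 and 3.81 ± 0.437 FPKM in the library labelled shKSRP, the BMP2 library and mock. It followed the light chains, with a ratio of 1.14 for BMP2 against mock and overlapping intervals between shKSRP and mock, though adding 5 FPKM left it at 0.73.

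Of the sarcomeric actins, Acta1 is the actin of adult skeletal muscle and Actc1 that of heart and of muscle in development. Acta1 (chr8:126415667-126418636 in mm9) was at 45.5 ± 1.41 FPKM in the library labelled shKSRP, 61.9 ± 1.75 FPKM in the BMP2 library and 27.9 ± 1.16 FPKM in mock. Both were above mock with intervals apart, at log2 ratios of 0.68 and 1.12, so that the BMP2 library was past 2-fold and the library labelled shKSRP was not. With the trend over transcript length taken out, the ratio of the library labelled shKSRP was 1.07. Actc1 was at 1.31 ± 0.244 FPKM in the library labelled shKSRP, 4.02 ± 0.453 FPKM in the BMP2 library and 1.81 ± 0.30 FPKM in mock, with shKSRP and mock overlapping. Actin coding sequences are nearly identical, and Acta2, the smooth muscle actin, was at 2338 ± 8.96, 1617 ± 7.92 and 1404 ± 8.65 FPKM in the library labelled shKSRP, the BMP2 library and mock. The labels do not say how reads that match several actin genes were divided, so the actin values are uncertain.

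The 7 troponin genes were all at 1 FPKM or more in at least 1 library, and they did not move as a unit. Their sum was 83.8 FPKM in the library labelled shKSRP, 160 FPKM in the BMP2 library and 159 FPKM in mock. Behind the near-equal sums of BMP2 and mock lay different subunits, which the troponin T genes show most clearly.

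Tnnt1, the slow skeletal troponin T (chr7:4456265-4467577), was at 37.4 ± 1.99 FPKM in the library labelled shKSRP, 8.91 ± 1.11 FPKM in the BMP2 library and 4.53 ± 0.725 FPKM in mock. The library labelled shKSRP stood far above the other two, at 8.25 times the mock FPKM and a log2 ratio of 2.80, against 0.84 for the BMP2 library. Assembled transcripts held 54.73%, 67.52% and 39.88% of this FPKM in the library labelled shKSRP, the BMP2 library and mock, and were 894 to 1055 nt long, beside 934 nt for the RefSeq transcript. The RefSeq transcript by itself was at 16.9, 2.90 and 2.72 FPKM in the same order of libraries. In no alternative was the call of Tnnt1 in the library labelled shKSRP lost (range 2.15 to 3.32).

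Tnnt2, the cardiac troponin T that is also made in embryonic skeletal muscle (chr1:137732963-137748838), was at 16.1 ± 1.13 FPKM in the library labelled shKSRP, 35.4 ± 1.52 FPKM in the BMP2 library and 91.2 ± 2.4 FPKM in mock. Mock was the highest by a wide margin, and the intervals of all 3 were apart, with log2 ratios to mock of −2.43 in the library labelled shKSRP and −1.34 with BMP2. In mock it was the most abundant troponin, and neither call was lost in an alternative that could include it. It shares its Cufflinks locus with an unnamed RefSeq transcript inside its span, which was listed at 0 in all 3 libraries.

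Tnnt3, the fast troponin T, had no FPKM (listed at 0) in the libraries labelled shKSRP and DM+BMP2, and was at 6.9 ± 0.895 FPKM in mock. A value of 0 in these files does not show that the mRNA was absent. The gene shares a locus with its neighbour Lsp1, and in the library labelled shKSRP a single assembled transcript of 2815 nt (chr7:149657331-149701695) joins exons of both genes. That transcript, at 7.78 ± 0.454 FPKM, overlaps 1685 nt of Lsp1 exons and 713 nt of Tnnt3 exons and was counted for Lsp1. In the BMP2 library every RefSeq transcript of Tnnt3 was listed at 0.

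The start sites of Tnni1 and Tnnt2, which were on opposite sides of mock with BMP2, lie near each other on chromosome 1, and their promoters are shown with those of Tnnt1, which of the 28 had the highest ratio to mock in the library labelled shKSRP, and Acta1. Each line gives the 250 bases before the RefSeq start on the gene's strand, 5′ to 3′, in GRCm38.p6, a later build than the mm9 of the files. Capitals mark CAGCTG (an E-box core bound by myogenic factors), CATTCC (M-CAT), TANNNNTA (MEF2 core) and TATAAA, each searched on both strands.
Tnnt1 (chr7:4515976-4516225, minus strand): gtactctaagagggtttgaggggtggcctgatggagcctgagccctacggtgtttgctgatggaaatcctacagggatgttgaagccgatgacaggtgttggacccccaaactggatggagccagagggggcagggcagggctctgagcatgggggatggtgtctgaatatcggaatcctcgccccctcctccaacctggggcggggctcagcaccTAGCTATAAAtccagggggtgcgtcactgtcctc
Tnnt2 (chr1:135836084-135836333, plus strand): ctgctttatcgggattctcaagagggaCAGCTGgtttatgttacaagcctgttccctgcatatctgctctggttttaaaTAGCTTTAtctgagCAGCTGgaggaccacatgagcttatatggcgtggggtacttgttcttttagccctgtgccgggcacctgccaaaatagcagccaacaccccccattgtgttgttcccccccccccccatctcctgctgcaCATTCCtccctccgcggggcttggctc
Tnni1 (chr1:135799171-135799420, plus strand): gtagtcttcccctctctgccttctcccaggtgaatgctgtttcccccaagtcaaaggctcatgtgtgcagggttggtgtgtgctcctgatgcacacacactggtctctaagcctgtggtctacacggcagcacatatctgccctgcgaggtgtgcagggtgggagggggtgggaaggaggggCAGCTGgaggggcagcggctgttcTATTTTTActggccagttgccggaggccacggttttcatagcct
Acta1 (chr8:123894776-123895025, minus strand): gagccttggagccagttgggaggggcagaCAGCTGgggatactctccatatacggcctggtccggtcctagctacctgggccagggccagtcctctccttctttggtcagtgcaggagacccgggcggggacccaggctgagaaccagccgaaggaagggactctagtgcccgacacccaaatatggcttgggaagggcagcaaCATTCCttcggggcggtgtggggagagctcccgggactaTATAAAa

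Counting back from the start, the first base of CAGCTG was at 223 and 157 in Tnnt2, at 68 in Tnni1 and at 221 in Acta1, and this window of Tnnt1 held none. The Tnnt1 window had TATAAA at 30, which overlaps a TANNNNTA match at 34. CATTCC was at 27 in Tnnt2 and 46 in Acta1. Promoter windows were matched for 39 of the 47 genes, 50 windows in all. CAGCTG was in 30.0% of them and in 13.0% of all 32851 RefSeq windows, CATTCC in 24.0% and 12.64%, TANNNNTA in 50.0% and 34.41%, and TATAAA in 24.0% and 12.37%. The broader CANNTG, which contains every CAGCTG, was in 82.0% and 66.22%, and the CArG core bound by serum response factor, searched as CC and GG with any 6 bases between, was in 76.0% and 67.09%. A match describes the letters and not a bound site.

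Among the inhibitory subunits, Tnni1, the slow form (chr1:137695998-137707566), was at 7.88 ± 0.691 FPKM in the library labelled shKSRP, 33.8 ± 1.85 FPKM in the BMP2 library and 14.3 ± 1.2 FPKM in mock. It was thus higher with BMP2 and lower in the library labelled shKSRP, at log2 ratios of 1.18 and −0.79 to mock, and the BMP2 ratio was 0.88 on the RefSeq transcript alone. Its annotated end lies 25.4 kb before the start of Tnnt2, so a neighbouring pair of slow and cardiac troponin genes stood on opposite sides of mock in the BMP2 library, and both below mock in the library labelled shKSRP. Tnni2, the fast form, was at 4.27 ± 0.691, 5.64 ± 0.841 and 3.21 ± 0.627 FPKM in the library labelled shKSRP, the BMP2 library and mock. The interval of the library labelled shKSRP overlapped both others, while those of BMP2 and mock were apart at a ratio of 0.66.

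Of the calcium-binding subunits, Tnnc1, shared by slow muscle and heart, was at 18.1 ± 1.41 FPKM in the library labelled shKSRP, 59.2 ± 2.63 FPKM in the BMP2 library and 39.2 ± 2.12 FPKM in mock. It had the order of Tnni1, with a log2 ratio of −1.07 for the library labelled shKSRP and 0.58 for BMP2. With 5 FPKM added the first was −0.93, and after the length trend was taken out −0.50, short of a call. Tnnc2, the fast form, was listed at 0 in the library labelled shKSRP and in mock, and was at 16.9 ± 1.42 FPKM in the BMP2 library, from an estimated 708 fragments. No fold is given against values listed at 0.

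**Figure D3:**
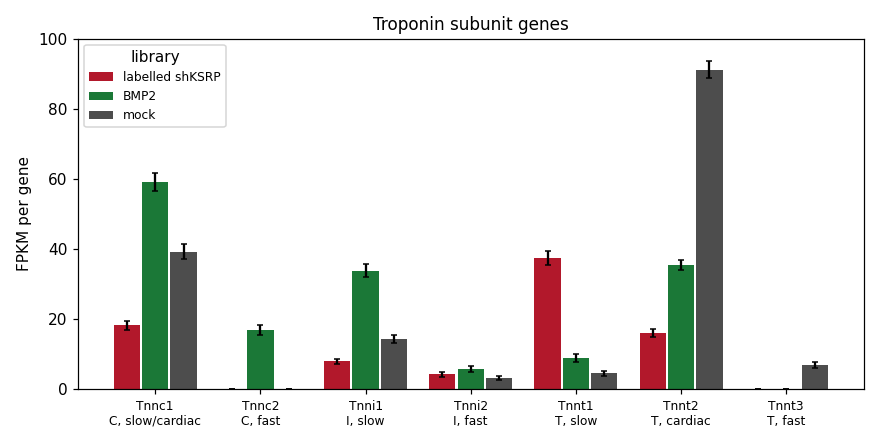
FPKM of the 7 troponin genes, with subunit and isoform under each name, as bars for the library labelled shKSRP (red), the BMP2 library (green) and mock (grey). Error bars are half-widths of the deposited 95% intervals; Tnnt1 is tallest in the library labelled shKSRP (37.4 FPKM), Tnnc1 and Tnni1 with BMP2 (59.2 and 33.8 FPKM) and Tnnt2 in mock (91.2 FPKM).

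Several of these genes are short, and short genes as a whole were lower against mock. Among all genes whose longest RefSeq transcript was under 1200 nt, the median log2 ratio to mock was −0.54 in the library labelled shKSRP and −0.38 with BMP2. Among genes of 3000 nt or more it was 0.26 and 0.19. The 12 sarcomere genes under 1200 nt had medians of −0.24 and 0.86, and the 9 of 3000 nt or more had 0.23 and 0.42, for the library labelled shKSRP and for BMP2. The higher ratios with BMP2 thus stood among short genes too, and once the trend over length was taken out the median of the 28 was 0.10 in the library labelled shKSRP and 0.91 with BMP2.

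Nebulin and leiomodin take part in setting thin filament length. Lmod2, a leiomodin that elongates thin filaments in heart and skeletal muscle, was at 2.19 ± 0.26 FPKM in the library labelled shKSRP, 0.851 ± 0.172 FPKM in the BMP2 library and 0.423 ± 0.12 FPKM in mock. The library labelled shKSRP was the highest, with a log2 ratio of 1.17, on a level low enough that adding 5 FPKM brought the ratio to 0.41. Neb, nebulin, was at 0.855 ± 0.156, 1.99 ± 0.318 and 1.43 ± 0.24 FPKM in the library labelled shKSRP, the BMP2 library and mock. From 91.59% to 100% of that was on assembled pieces of the 3′ end, and over the full length of 22489 nt it came to 0.158, 0.26 and 0.131 FPKM in the same order. Nebl, nebulette of the cardiac Z-disc, was at 0.0491 ± 0.0311 FPKM in the library labelled shKSRP, 1.39 ± 0.136 FPKM in the BMP2 library and 3.79 ± 0.787 FPKM in mock. The mock value was on 2 assembled transcripts of 603 and 713 nt that overlap no annotated Nebl exon, and when such overlap was required the log2 ratios to mock were 0.069 for the library labelled shKSRP and 1.25 for BMP2. The 2 calls of Nebl against mock rest on those assembled transcripts.

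Titin and the myomesins of the M-band summed to 7.40 FPKM in the library labelled shKSRP, 3.86 FPKM in the BMP2 library and 2.26 FPKM in mock, and to 2.90, 2.57 and 1.26 FPKM without Myom2, the member called. Myom2, also called M-protein and found in fast fibres and heart, was at 4.5 ± 0.255 FPKM in the library labelled shKSRP, 1.29 ± 0.13 FPKM in the BMP2 library and 1.01 ± 0.128 FPKM in mock. Its log2 ratio to mock was 1.45 in the library labelled shKSRP and 0.19 with BMP2, so it went past 2-fold in 1 of them, and it was 0.66 with 5 FPKM added. Myom1, the general myomesin, was at 1.09 ± 0.227 FPKM, 1.11 ± 0.169 FPKM and 0.237 ± 0.0596 FPKM in the library labelled shKSRP, the BMP2 library and mock. Its log2 ratios to mock were 0.76 and 0.77, under 2-fold, and assembled pieces held 85.66% of the value in the library labelled shKSRP, 73.86% with BMP2 and none in mock. On RefSeq transcripts alone Myom1 was at 0.156, 0.289 and 0.237 FPKM in the same order, so that the library labelled shKSRP was then below mock. Ttn, titin, was at 1.25 ± 0.0708 FPKM in the library labelled shKSRP, 0.594 ± 0.0504 FPKM in the BMP2 library and 0.682 ± 0.0453 FPKM in mock, with the shKSRP interval apart from the others. Between 95.67% and 100% of this was on assembled pieces at the 3′ end of 14972, 14688 and 20326 nt, out of 101674 nt for the RefSeq transcript, so the level of full-length titin mRNA was not measured well. Divided by that full length, titin was at 0.227, 0.108 and 0.136 FPKM in the same order.

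Of the 28 genes, 15 had some of their FPKM on transcripts that Cufflinks assembled from that library's reads, which differ in length between libraries. Ttn, Neb and Nebl had nearly all of it there where any was assembled, and Myh3 had 100% in the library labelled shKSRP, 24.61% in the BMP2 library and 0% in mock.

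**Figure D4:**
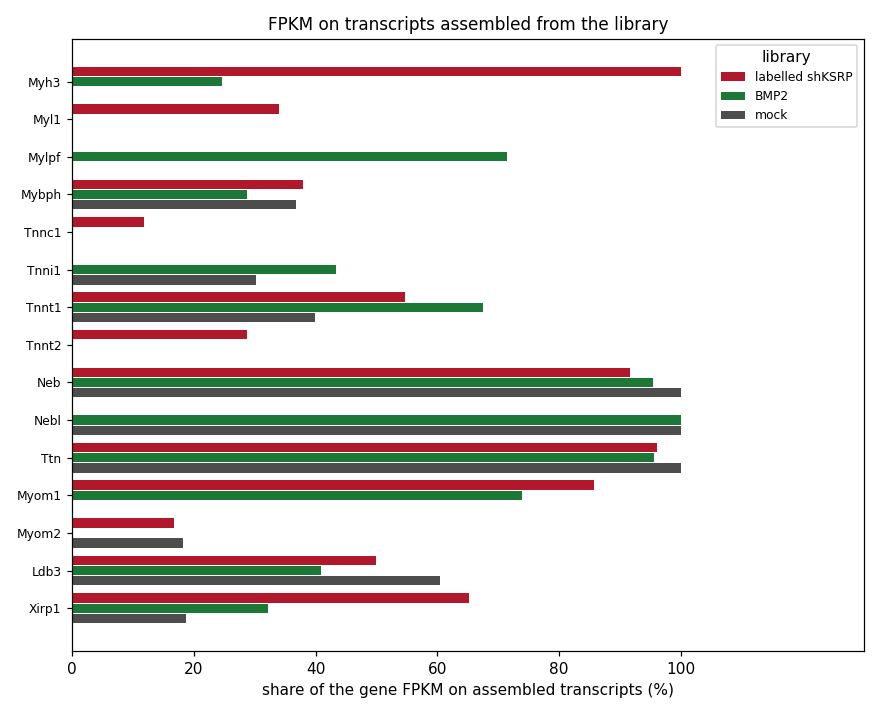
Percent of each gene's FPKM that lay on transcripts assembled from that library's own reads, for the 15 of the 28 sarcomere genes with any, in the library labelled shKSRP (red), the BMP2 library (green) and mock (grey). Neb, Nebl and Ttn rest almost wholly on assembled pieces where they have them, and Mylpf has 71.47% there in the BMP2 library and none in the other two.

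At the Z-disc, Actn3, the fast alpha-actinin that crosslinks thin filaments, was at 19.5 ± 0.633 FPKM in the library labelled shKSRP, 12.9 ± 0.549 FPKM in the BMP2 library and 6.7 ± 0.389 FPKM in mock. The order had no overlap of intervals, and the log2 ratio of 1.41 for the library labelled shKSRP was past 2-fold under every alternative (range 1.07 to 1.53), while that of BMP2 was 0.86. Its paralogue Actn2, the other sarcomeric alpha-actinin, was at or below 0.222 FPKM in every library. Ldb3, a PDZ and LIM protein that binds alpha-actinin, was at 7.74 ± 0.384 FPKM in the library labelled shKSRP, 15.6 ± 0.582 FPKM in the BMP2 library and 4.51 ± 0.29 FPKM in mock. Here BMP2 was the highest, with a ratio to mock of 1.60 that stayed past 2-fold in every alternative (range 1.12 to 1.88), and 0.67 for the library labelled shKSRP.

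Des, desmin, the intermediate filament protein that links Z-discs and that myoblasts already make, was the most abundant of the 47. It was at 185 ± 2.27 FPKM in the library labelled shKSRP, 218 ± 2.62 FPKM in the BMP2 library and 279.8 ± 2.93 FPKM in mock. Desmin was below mock in both, at log2 ratios of −0.60 and −0.36, with intervals far apart but under 2-fold. Tcap, the titin cap, was at 0.249 ± 0.133, 2.17 ± 0.417 and 0.723 ± 0.238 FPKM in the library labelled shKSRP, the BMP2 library and mock, and Csrp3, the muscle LIM protein of slow muscle and heart, was at 0.743 ± 0.238, 2.53 ± 0.466 and 1.09 ± 0.301 FPKM. Both were highest with BMP2, past 2-fold lower in the library labelled shKSRP than in the BMP2 library at −1.34 and −1.02, and under 2-fold against mock. As said of that comparison, adding 5 FPKM ended both calls, and taking out the length trend also ended that of Csrp3 (−0.85). Xirp1, an actin-binding repeat protein, was at 1.06 ± 0.119 FPKM in the library labelled shKSRP, 0.662 ± 0.0996 FPKM in the BMP2 library and 1.06 ± 0.12 FPKM in mock. It was the Z-disc gene with the smallest ratio between the library labelled shKSRP and mock, −0.00. Assembled transcripts held 65.2% of its FPKM in the library labelled shKSRP, 32.18% in the BMP2 library and 18.72% in mock. On RefSeq transcripts alone Xirp1 was at 0.370, 0.449 and 0.865 FPKM in the same order, so the near-equal values rest on the assembled transcripts.

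Smyd1, a methyltransferase needed for myosin assembly, was at 0.441 ± 0.103 FPKM in the library labelled shKSRP, 1.08 ± 0.175 FPKM in the BMP2 library and 0.559 ± 0.104 FPKM in mock. The intervals of the library labelled shKSRP and mock overlapped, and BMP2 was higher at a ratio of 0.42. Mb, myoglobin, the oxygen store of muscle, was at 3.11 ± 0.541 FPKM in the library labelled shKSRP, 9.005 ± 0.955 FPKM in the BMP2 library and 3.82 ± 0.627 FPKM in mock. It was past 2-fold higher with BMP2 at 1.05, which was 0.67 with 5 FPKM added, and shKSRP and mock overlapped.

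Over the 11 alternatives to the processing (other pseudocounts, filters, transcript sums and scalings), the calls against mock of Tnnt1 and Actn3 in the library labelled shKSRP, and of Myl1, Acta1 and Ldb3 in the BMP2 library, were kept in all. Tnnt2, which drops out with genes at shared loci, was kept in the other 10 in both comparisons. Tnnt3 could be set in 9 of them and Tnnc2 in 10, and since their calls rest on a 0, the direction there was fixed by that 0. The other called genes lost their calls in at least 1 alternative.

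**Figure D5:**
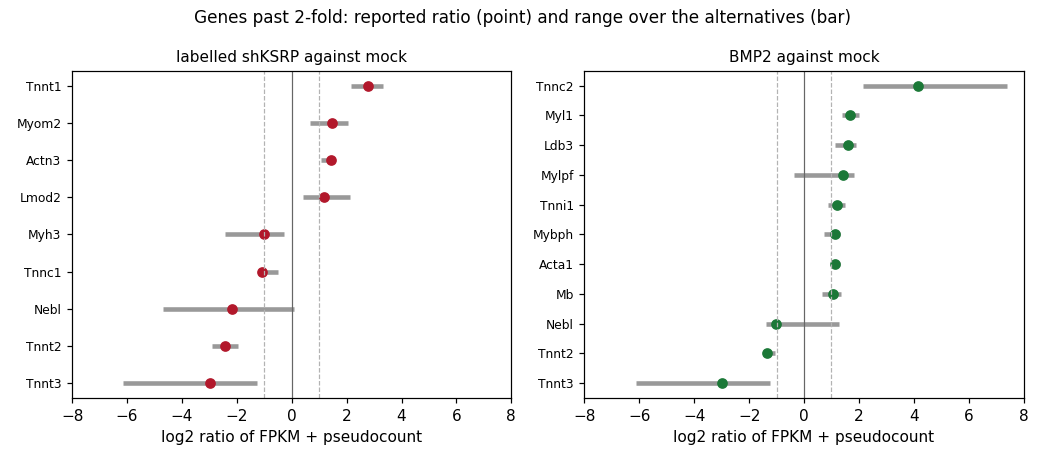
Reported log2 ratio (point) and the range over the alternative settings that include the gene (grey bar) for the genes past 2-fold against mock, in the library labelled shKSRP (left) and the BMP2 library (right), with dashed lines at 2-fold. The bars of Tnnt1, Actn3, Tnnt2 and Tnnt3 on the left, and of Tnnc2, Myl1, Ldb3, Acta1, Tnnt2 and Tnnt3 on the right, stay past the lines, while those of Nebl and Mylpf cross 0.

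The 19 genes under 1 FPKM everywhere were Myh2, Myh4, Myh6, Myh7, Myh8, Myl2, Myl3, Myl4, Mybpc1, Mybpc2, Myom3, Actn2, Myoz1, Myoz2, Xirp2, Ankrd2, Unc45b, Hspb3 and Ckm. They include the adult light chains of slow muscle and heart and both skeletal C-proteins, and Myl3 and Myl4 were listed at 0 in all 3 libraries. Ckm, muscle creatine kinase, came nearest to the limit, at 0.222 ± 0.0994 FPKM in the library labelled shKSRP, 0.978 ± 0.221 FPKM in the BMP2 library and 0.622 ± 0.174 FPKM in mock. Myom3 was next, at 0.557 ± 0.0754, 0.868 ± 0.163 and 0.34 ± 0.0618 FPKM in the same order. Unc45b, a myosin chaperone, was highest in the library labelled shKSRP at 0.229 ± 0.0611 FPKM, against 0.102 ± 0.0433 FPKM in the BMP2 library and 0.0224 ± 0.0201 FPKM in mock. Just inside the limit stood Smyd1, Myom1 and Xirp1, whose highest values were 1.08, 1.11 and 1.06 FPKM.

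By isoform class, fast genes summed to 75.8 FPKM in the library labelled shKSRP, 190 FPKM in the BMP2 library and 71.1 FPKM in mock. Mylpf made up most of that sum in each library. Slow genes, including those shared with heart, summed to 64.5, 106 and 60.1 FPKM in the library labelled shKSRP, the BMP2 library and mock, and cardiac genes to 19.7, 41.8 and 97.3 FPKM, in which Tnnt2 was the main term. Tnnt1 was the main slow gene in the library labelled shKSRP, and without it the slow genes summed to 27.1, 97.5 and 55.6 FPKM, which puts the library labelled shKSRP below mock. The class of embryonic and neonatal genes held Myh3, Myh8 and Myl4 alone. It summed to 0.170 FPKM in the library labelled shKSRP, 3.55 FPKM in the BMP2 library and 1.36 FPKM in mock, nearly all of it Myh3. Tnnt2 and Actc1, which are also made in developing skeletal muscle, were counted as cardiac, so this sum does not cover all embryonic isoforms. Median log2 ratios to mock in the BMP2 library were 0.86 for the 7 fast genes, 0.80 for the 4 slow genes and −0.31 for the 4 cardiac genes at 1 FPKM or more, against 0.03 for all genes. In the library labelled shKSRP they were 0.00, −0.52 and −1.23, against −0.02 for all genes, and the 0.00 is that of Tnnc2, listed at 0 in both libraries. The cardiac medians rest on Nebl: with exon overlap required they were −0.10 in the library labelled shKSRP and 0.61 with BMP2, so the second changes sign.

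Another 46 proteins of the sarcomere and its surroundings, listed apart from the 47, had 31 genes at 1 FPKM or more. In the library labelled shKSRP against mock, 4 were past 2-fold higher (Palld, Fhod3, Synpo2l and Capn3) and 2 lower (Fhl1 and Ankrd1), with a median of 0.00. These are 12.9% and 6.45% of the 31, beside 10.9% and 12.9% of all genes. Synpo2l shares its Cufflinks locus with Myoz1, a member of the 47. In the BMP2 library 4 were higher (Palld, Tmod1, Pdlim5 and Capn3) and 1 lower (Tmod4, listed at 0 there), with a median of 0.14. These are 12.9% and 3.23% of the 31, beside 9.18% and 9.03% of all genes. So this wider list lacked the higher median of the 28 with BMP2. Palld, palladin, an actin-bundling protein of Z-discs and stress fibres, was at 124 ± 1.7 FPKM in the library labelled shKSRP, 161 ± 1.7 FPKM in the BMP2 library and 22.9 ± 0.695 FPKM in mock, with log2 ratios of 2.38 and 2.76. Fhod3, a formin of cardiac sarcomeres, was at 12.6 ± 0.381, 7.31 ± 0.309 and 3.41 ± 0.286 FPKM in the same order, past 2-fold in the library labelled shKSRP at 1.63. Lower in the library labelled shKSRP were Fhl1, a LIM protein of muscle, with 43.2 ± 1.27 FPKM there, 96.6 ± 1.99 FPKM in the BMP2 library and 121 ± 2.05 FPKM in mock, and Ankrd1, a titin-binding ankyrin repeat protein, with 159 ± 2.35, 242 ± 4.47 and 354 ± 3.67 FPKM. Tmod1, which caps thin filament ends, was listed at 0 in the library labelled shKSRP, at 11.1 ± 0.576 FPKM in the BMP2 library and at 0 in mock.

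Of 19 nonmuscle counterparts, such as Myh9, Myl6 and Actb, 17 were at 1 FPKM or more. None was past 2-fold higher and 3 were lower (Myl6, Myl6b and Ckb) in the library labelled shKSRP against mock, or 17.65% of the 17 lower beside 12.9% of all genes (10.9% higher), with a median of −0.28. In the BMP2 library 1 was higher (Synm) and 2 were lower (Myl6b and Nes), or 5.88% and 11.76% beside 9.18% and 9.03%, with a median of 0.01. Myl6b shares a locus with Myl6 and was listed at 0 in both of these libraries. Synm and Myl6b are also made in muscle, so the list is not a strictly nonmuscle contrast. Actb, cytoplasmic beta-actin, was at 1697 ± 7.39 FPKM in the library labelled shKSRP, 3246 ± 10.9 FPKM in the BMP2 library and 3225 ± 10.7 FPKM in mock. Myh9, the main nonmuscle heavy chain, was at 479 ± 3.29, 386 ± 2.68 and 376 ± 4.44 FPKM in the same order, far above any sarcomeric heavy chain.

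Markers of other cell states also differed between the libraries, not all in the order of the sarcomere sums, and their part in these values was not tested. Markers of differentiating muscle (7 genes) summed to 37.6 FPKM in the library labelled shKSRP, 29.3 FPKM in the BMP2 library and 20.4 FPKM in mock, with 4, 4 and 3 of them at 1 FPKM or more. Of the 4 at 1 FPKM or more in at least 1 library, 3 were above mock in the library labelled shKSRP and 1 was below. Under that limit, Ckm and Mef2c were below mock there and Myf6 was above. Mef2c was at 0.0741, 0.438 and 0.326 FPKM in the library labelled shKSRP, the BMP2 library and mock, and Myf6 at 0.475, 0.203 and 0.148 FPKM. Mymk was at 17.6 ± 0.903, 11.4 ± 0.773 and 6.58 ± 0.578 FPKM in the same order. Chrng, which shares a locus with Eif4e2, was at 11.5 ± 0.603, 2.67 ± 0.309 and 2.49 ± 0.367 FPKM. Both were past 2-fold above mock in the library labelled shKSRP, at 1.29 and 1.84, and together they made up most of its sum of 37.6 FPKM. Of the 4 at 1 FPKM or more, the 1 below was Myog, the regulator that opens differentiation. It was at 6.52 ± 0.525, 11.3 ± 0.735 and 9.54 ± 0.665 FPKM in the same order, so it was lowest in the library labelled shKSRP. Myoblast markers (8 genes, desmin among them) summed to 456, 309 and 455 FPKM with 7, 6 and 7 at 1 FPKM or more, so the markers of the labelled cell line were present in each library. Without desmin the other 7 summed to 271, 91.1 and 175 FPKM in the same order. Chrna1 was the largest of them in each library, at 132 ± 1.33, 55.6 ± 1.23 and 94.1 ± 2.24 FPKM. Chrna1 and Musk were listed here and Chrng with differentiating muscle, so the 2 lists do not separate these states cleanly. In the library labelled shKSRP, Myf5, Pax7 and Musk were past 2-fold above mock and Msc below, and in the BMP2 library Cdh15 and Msc were below. Myf5, an early myogenic regulator, was at 48.4 ± 1.18 FPKM in the library labelled shKSRP, 9.09 ± 0.545 FPKM in the BMP2 library and 7.75 ± 0.496 FPKM in mock. Osteoblast markers (8 genes) summed to 32.3, 216 and 54.5 FPKM, with Ibsp listed at 0 in all 3, and Alpl, the bone alkaline phosphatase, was at 0.447 ± 0.103 FPKM in the library labelled shKSRP, 12.8 ± 0.819 FPKM in the BMP2 library and 0.0518 ± 0.0366 FPKM in mock. Smooth muscle and myofibroblast markers (6 genes) summed to 2627, 1977 and 1694 FPKM, most of it Acta2, with the smooth muscle heavy chain Myh11 at or below 0.0532 FPKM. Cardiomyocyte markers (8 genes) summed to 5.23, 7.59 and 10.1 FPKM, with Tbx5 listed at 0 in all 3 libraries and Gata4 making up most of each sum.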

How the data were processed

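The 3 C2C12 libraries of polyadenylated RNA were 1 per group. Per the labels' protocols, libraries were sized on a gel to 250 ± 25 bp and had 18 cycles of PCR. The submitters' processing notes name Cufflinks 1.3.0, TopHat 1.4.1, Bowtie 0.12.7, CASAVA 1.8 and the build mm9, without settings or strand.

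Per the file attributes, the deposited Cufflinks transcripts of each library carry FPKM and its 95% bounds. The authors' files also hold a Cufflinks score per transcript, which was not used. Each library was assembled on its own. The FPKM of a gene was the sum over its RefSeq transcripts and the assembled transcripts of its locus. At a locus with more than 1 gene, the largest exon overlap decided to which gene an assembled transcript was counted. Half-widths are the root of the summed squares of the transcripts' upper bounds minus FPKM. An assembled transcript can take fragments from RefSeq ones in 1 library only, which moves FPKM between lengths. Symbols came from RefSeq (GRCm38.p6) for 27563 of 28222 accessions.

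Genes at 1 FPKM or more in at least 1 library with a RefSeq transcript of at least 300 nt were compared (11457 genes, 1704 of them at a shared locus and 758 listed at 0 in a library). Called means a log2 ratio of FPKM + 1 of at least 1 in size. The rule was applied with Python 3.11.15 and pandas 2.3.3. Genes named were all members, and of the added lists those past 2-fold with the highest and lowest ratios. Myh9, Actb, Acta2, Khsrp and the markers given singly were chosen outside that rule. The members and lists were chosen with earlier results of these data known. Promoter sequences are RefSeq's, in GRCm38.p6. Processing was varied in 10 ways, and in 1 more that was chosen after seeing the data, with the outcome in the closing section.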

Additional observations from a re-analysis of the deposited data

How the results depend on the processing

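With 1 library per group, neither the spread between cultures nor a left-out library could be examined, and the deposited intervals limit only counting and assignment error. No paired analysis was possible because each group has 1 library and the labels give no replicate numbers. Of the calls among the 28 sarcomere genes, the higher ones in BMP2 against mock (8) were 14 with a pseudocount of 0.1 and 14 with the trend over transcript length taken out. With a pseudocount of 5, shKSRP against mock had 2 higher and 2 lower (4 and 5 as reported), and shKSRP against BMP2 had 1 higher and 5 lower (2 and 13 as reported). With genes at shared loci left out, the lower calls against mock were 2 for shKSRP and 1 for BMP2 (5 and 3 as reported). The other counts stayed within 1.5 times. On RefSeq transcripts alone, Mylpf turned to −0.37 (BMP2 against mock) and 0.32 (shKSRP against BMP2), where the assembled transcript of the BMP2 library is not counted. Nebl turned to 1.26 in BMP2 against mock with fragments over a fixed gene length, and to 1.25, and to 0.069 in shKSRP against mock, where exon overlap was required, which leaves out its mock transcripts. Leaving out genes listed at 0, an alternative chosen after seeing the data, gave 4 higher and 4 lower for shKSRP against mock and 7 higher and 2 lower for BMP2 against mock.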
